A study of Homo sapiens with 2 samples.

Results

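The cytosolic nucleic acid sensing axis was taken as 10 genes, listed by symbol for their role in the pathway, with earlier results of these data known: CGAS, STING1, TBK1, IRF3, IRF7, IFIH1, RIGI, MAVS, TREX1 and ADAR, of 59098 genes in a RefSeq table. R-loops, in which RNA pairs with one DNA strand and displaces the other, were mapped with CUT&Tag in A549, a human lung cancer line, here wild type and with no treatment named in the labels. CUT&Tag uses an antibody to bring a transposase to its target, and the sequenced cuts mark where the antibody bound. The study had 2 libraries, 1 made with S9.6, an antibody to RNA-DNA hybrids, and 1 with IgG, which was not analysed here. All values below come from the single S9.6 peak list, with no replicate, no IgG track and no RNase H control, so no difference was tested and signal that does not depend on hybrids was not separated.

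These genes form a relay that reports nucleic acid in the wrong place. cGAS senses DNA in the cytosol and makes a cyclic dinucleotide that activates the adaptor STING, while RIG-I and MDA5 (the product of IFIH1) sense RNA and signal through the mitochondrial adaptor MAVS. Both routes reach the kinase TBK1, which activates IRF3 and IRF7, the transcription factors that switch on type I interferon genes. TREX1, a DNA exonuclease, and ADAR, which edits adenosines in double-stranded RNA, keep the cell's own nucleic acids from setting the relay off. The title of the study connects R-loops with the restraint of innate immunity, and the question here was where the S9.6 signal lay over the genes of the relay themselves.

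The peak list held 45756 peaks on chromosomes 1 to 22 and X. For each peak it gives a total signal (coverage summed over the peak's bases) and a maximum coverage (the highest stack of tagged fragments). Coverage was shallow: the median maximum was 2 and the median total 986, and the lowest total listed anywhere was 745, so weaker signal is not seen. The read total is unknown. As a check on the cell label, 5 of 6 epithelial genes had a peak (KRT8, KRT18, KRT19, CDH1 and CLDN4, without EPCAM), as did 5 of 6 genes of the antioxidant programme of A549 cells, against 3 of 6 for leukocyte, 3 of 6 for fibroblast and 4 of 6 for endothelial genes. Over all protein-coding genes the share with a peak was 60.4%, and counts out of 6 say little beside it. Peaks record antibody signal and not expression, and this check does not identify a cell type.

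Of the 10 genes, 5 carried at least 1 base of a peak over their span or the 1000 bp on either side (50%, 95% Wilson interval 23.7 to 76.3, counting error only), beside 60.4% of 19974 protein-coding genes. By role, both adaptors (STING1 and MAVS) and both brakes (TREX1 and ADAR) had a peak, as did 1 of the 2 transcription factors, IRF3. None of the 3 sensors (CGAS, IFIH1 and RIGI) had one, and neither did the kinase TBK1 or the transcription factor IRF7. The carriers held 8 peaks: 3 at MAVS, 2 at IRF3 and 1 each at STING1, TREX1 and ADAR. Per 100 kb of span and flanks this was 2.54 peaks, beside 2.34 over all protein-coding genes. The share and density of the 10 genes were therefore near the background, and the description below is of which genes carried signal and where.

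**Figure D1:**
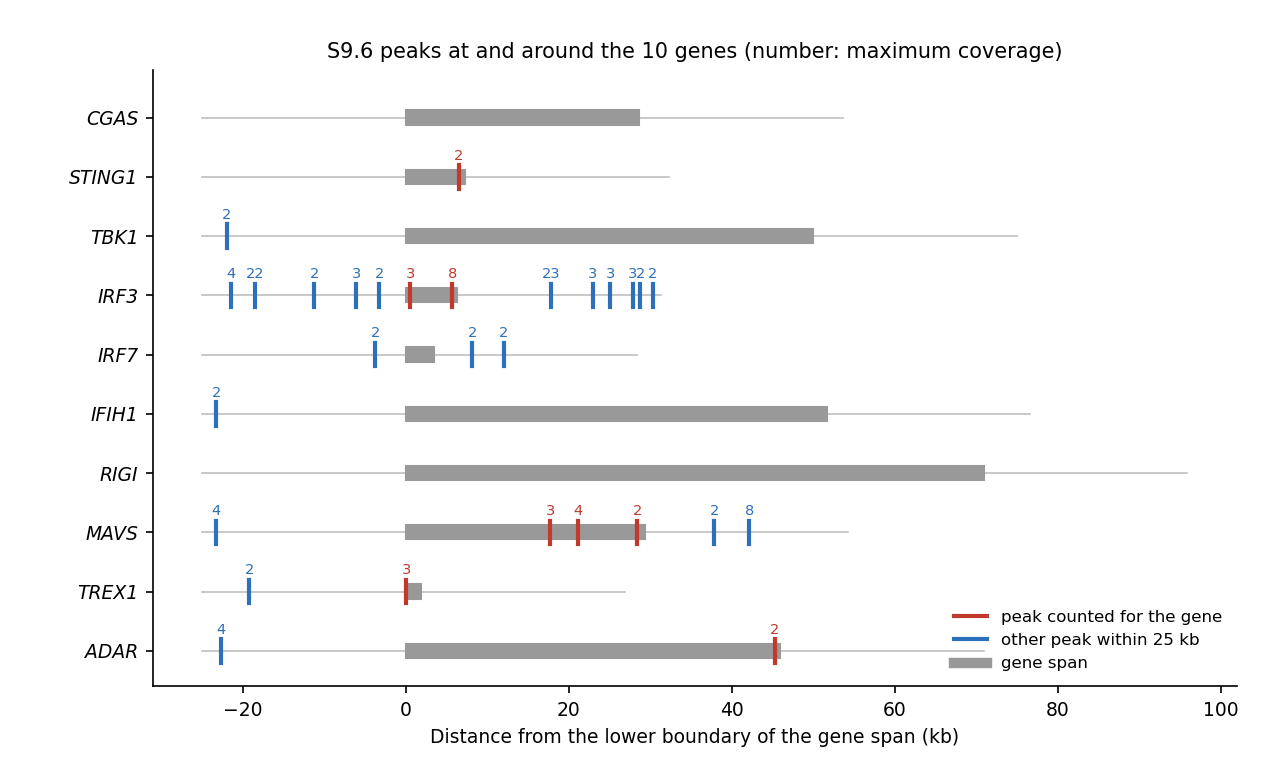
Each row is 1 gene, drawn as a grey bar from its lower to its upper boundary in kb, with the surrounding 25 kb on either side. Red ticks are S9.6 peaks counted for the gene and blue ticks are other peaks nearby, with the maximum coverage above each tick: IRF3 and MAVS stand in peak-rich surroundings, and CGAS and RIGI have no peak in the drawn window.

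The sensors were free of listed peaks over long stretches. CGAS (chr6:73423711-73452297, a span of 28587 bp) had its nearest peak 56770 bp above the upper boundary, at the far end of MTO1 (chr6:73509067-73509983, maximum coverage 2, total signal 1102). RIGI, the longest of the 10 genes at 70895 bp (chr9:32455302-32526196), had its nearest peak 70467 bp below the lower boundary, over the start of ACO1 (chr9:32384216-32384835, maximum coverage 4). From the listed start of RIGI, which lies on the minus strand, that peak was 141361 bp away. IFIH1 (chr2:162267074-162318684, 51611 bp) had its nearest peak 23075 bp below the span, with a maximum of 2 and a total of 752, close to the lowest total in the list.

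These spans are not short, and longer genes have more room for a peak. Of protein-coding genes with spans from 0.5 to 2 times the member's length, 63.1% of 7069 had a peak for CGAS, 67.2% of 6436 for IFIH1 and 69.6% of 5791 for RIGI. Over all chromosomes, each sensor thus belonged to the minority of genes of its length without a peak. CGAS lies on chromosome 6, where a smaller share of protein-coding genes had a peak. Without that chromosome the share over all protein-coding genes was 61.9%, beside 60.4% with it. This shift of the whole share is smaller than the gap at chromosome 6 itself, whose own share was not computed. The length-matched shares above therefore do not account for the chromosome of CGAS. Across the 10 genes, the 5 without a peak had a median span of 49995 bp and the 5 with a peak 7226 bp, whereas over all protein-coding genes the share with a peak went from 39.0% in the shortest of 5 equal bins of length to 78.0% in the longest.

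IFIH1 shares its promoter region with a neighbour. Its start lies 79 bp from a listed start of GCA, a calcium-binding protein gene transcribed from the opposite strand, and GCA had no peak over its span either. RIGI also has few peaks around it: 1 peak lay within 100 kb of its span, fewer than for most protein-coding genes (percentile 13.4). For IFIH1 the count was 2 (percentile 23.9), and for CGAS it was 5 (percentile 48.6). Of other protein-coding genes within 500 kb, 5 of 11 near CGAS, 4 of 6 near IFIH1 and 4 of 8 near RIGI had a peak.

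The adaptors differed in where their signal lay. STING1 (chr5:139475533-139482758) had 1 peak, 814 bp wide, wholly inside the gene at chr5:139481577-139482390, with a maximum of 2 and a total of 1079. The peak ended 368 bp short of the upper boundary, and its maximum was a plateau 666 bp long. No start of STING1 is in the promoter table used here, so the boundary was not read as a start or an end. It was the only peak within 25 kb of the gene.

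MAVS (chr20:3846834-3876118, plus strand) was the member with most peaks, and all 3 lay in the downstream part of the gene. The first, chr20:3864191-3864920, had a maximum of 3 and a total of 1154, with its summit (the middle of the region of maximum coverage) 17507 bp past the listed start. The second, chr20:3867733-3868238, was the narrowest of the 8 peaks at 506 bp and reached a maximum of 4 over 7 bp, with a total of 1010. The third, chr20:3874893-3875585, had a maximum of 2 and a total of 921, and ended 533 bp before the gene's end.

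The start of MAVS itself had no peak, the nearest edge being 17357 bp away. Having 3 or more peaks was found for 18.7% of protein-coding genes. MAVS also lies in a neighbourhood dense in peaks, with 37 within 100 kb of its span (percentile 98.4), and 14 of 15 other protein-coding genes within 500 kb had one. The next gene downstream, PANK2, a pantothenate kinase gene named here after its values were seen, had a peak with a maximum of 8 (chr20:3888486-3889445) with its summit 33 bp from a listed start. The table gives gene spans without exons or introns, so peaks inside genes were not assigned to either.

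TBK1 (chr12:64452120-64502114, plus strand, 49995 bp) had no peak. The nearest was 21664 bp upstream of its start, inside XPOT, the nuclear export receptor for tRNA (chr12:64429738-64430456, maximum 2, total 760). Of protein-coding genes with spans from 0.5 to 2 times that of TBK1, 67.0% of 6472 had a peak, and so did 7 of 7 other protein-coding genes within 500 kb. TBK1 thus had no listed peak, while each other protein-coding gene within 500 kb had one. Its surroundings were not rich in peaks, with 3 within 100 kb of its span (percentile 33.8).

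IRF3 (chr19:49659572-49665857) carried the strongest peak of the axis. At chr19:49664528-49665983 a peak 1456 bp wide crossed the upper boundary of the gene, with a maximum of 8 and a total of 3648. Its maximum stood at percentile 97.8 and its total at percentile 97.4 of all peaks on these chromosomes. A second peak, chr19:49659703-49660501, began 131 bp inside the lower boundary, with a maximum of 3 and a total of 983. Together they made 44.6% of the total signal summed over the 8 peaks.

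The stronger IRF3 peak cannot be given to IRF3 alone. BCL2L12, a gene of the BCL2 family, overlaps IRF3 at this end and has listed starts at 49665142 and 49665933 on the plus strand, both under the peak. The maximum lay on 4 bp at chr19:49664581-49664584, inside IRF3, 1275 bp from its upper boundary and 560 bp upstream of the first BCL2L12 start. S9.6 CUT&Tag as listed here carries no strand, so hybrids of the IRF3 and BCL2L12 transcripts cannot be told apart. Without the peaks whose summit lies nearer to the start of another protein-coding gene (to either boundary where no start is listed), IRF3 kept the peak with a maximum of 3, MAVS kept 1 of 3, and the 8 peaks became 5. The MAVS peaks left out by that rule lie wholly inside MAVS, the second of its 3 peaks 20992 bp from its own start and 20955 bp from that of PANK2.

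The surroundings of IRF3 were rich in strong peaks. Within 25 kb there were 13 peaks, the highest with maxima of 22 at SCAF1 (chr19:49639521-49642668) and 23 at PRMT1 (chr19:49675647-49679122), both named after their values were seen. SCAF1 encodes an SR-related factor, and PRMT1 an arginine methyltransferase. Of 41 other protein-coding genes within 500 kb of IRF3, 36 had a peak. The IRF3 maximum of 8 was thus below both of these neighbours.

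IRF7 (chr11:612555-615950, 3396 bp) had no peak within 1000 bp, although 40 of 50 other protein-coding genes within 500 kb had one. Peaks with a maximum of 2 lay on both sides, 3554 bp below the lower boundary inside PHRF1 (chr11:608573-609001, total 768) and 4345 bp above the upper boundary inside CDHR5 (chr11:620295-621042, total 1032). With a window of 5000 bp both counted for IRF7, and 6 of the 10 genes had a peak. For a gene this short a peak is not the rule: of 3091 protein-coding genes from 0.5 to 2 times its length, 45.4% had one. The related factors IRF1 and IRF7 had none, while IRF5 had 3 peaks (maximum 4) and IRF9 had 1 (maximum 3).

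Both brakes had a weak peak at a listed start. The TREX1 peak (chr3:48465588-48466115, 528 bp) covered the start of the gene at 48465830 on the plus strand, and its maximum of 3 lay on 4 bp with the summit 71 bp into the gene. Its total of 781 was the lowest of the 8 peaks (percentile 10.2), close to the lowest in the list. TREX1 spans 1816 bp, and 33.7% of 2008 protein-coding genes from 0.5 to 2 times that length had a peak. The whole of TREX1 lies within the span of ATRIP, a DNA damage checkpoint gene on the same strand, whose own start carried a separate peak with a maximum of 2 (chr3:48446112-48447029), so transcripts running through from ATRIP cannot be told apart from those of TREX1.

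The ADAR peak (chr1:154627024-154627635, 612 bp) lay inside the gene just after its outermost starts, with a maximum of 2 and a total of 808. ADAR (chr1:154582057-154627997, minus strand) has 3 listed starts. Those at 154627997 and 154627971 were 362 and 336 bp from the near edge of the peak, and the third, at 154608797, was 18227 bp from any peak. A lncRNA, LOC124904427, starts on the plus strand at 154627956, between these starts and the peak, and its transcription runs away from the peak. Only the outer starts of ADAR thus had listed signal within 1000 bp.

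**Figure D2:**
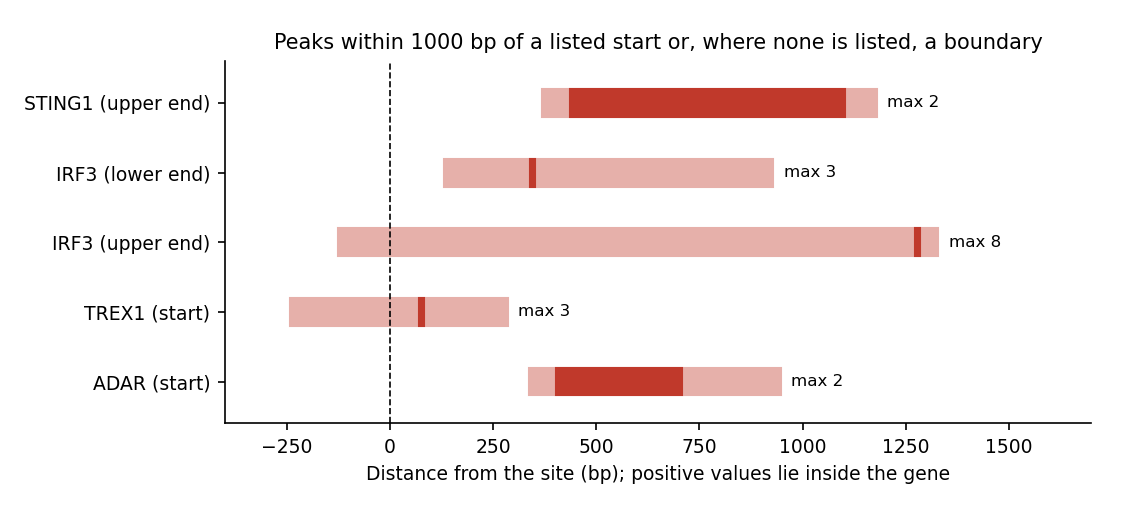
Each row is 1 peak within 1000 bp of a listed start (TREX1, ADAR) or, where no start is listed, of the nearer boundary (STING1, IRF3), placed by its distance in bp from that site with positive values inside the gene. Pale bars are peaks and dark bars the region of maximum coverage, drawn at least 12 bp wide: the TREX1 maximum sits 71 bp inside the start, and the IRF3 maximum of 8 sits 1275 bp inside the upper boundary.

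Counting a peak within 1000 bp of a listed start, TREX1 and ADAR had one among the 6 members with a listed start, beside 38.4% of 15812 protein-coding genes. TBK1, IFIH1, RIGI and MAVS had none. Of the 4 members without a listed start, STING1 and IRF3 had a peak within 1000 bp of a boundary, and CGAS and IRF7 did not. By these rules together 4 of 10 members had a start or boundary peak, beside 38.1% of protein-coding genes. By boundary alone the count was 5, since the third MAVS peak lies near its end, beside 40.1%.

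The bases just before the starts are shown for TREX1 and ADAR, which had a start peak, for the stretch between IRF3 and the second BCL2L12 start, which the strongest peak covers, and for TBK1 and IFIH1, which had none. Sequences are from RefSeq on GRCh38.p14, read in the direction of transcription, and capitals mark matches to 4 motifs searched on both strands: the run GGGG (R-loop prone DNA is rich in clustered G), the interferon-response-like core (the capitals GAAACAGAAA before IFIH1 are 1 such match), CACGTG (an E-box) and the NRF1-like palindrome, with overlapping matches counted. For IFIH1 only the 78 bases up to the start of GCA are printed.
TREX1, chr3:48465680-48465829, plus strand: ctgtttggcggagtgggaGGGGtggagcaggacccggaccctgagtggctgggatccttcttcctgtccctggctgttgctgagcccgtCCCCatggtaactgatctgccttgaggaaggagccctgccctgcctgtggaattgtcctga
ADAR, chr1:154627998-154628147, minus strand: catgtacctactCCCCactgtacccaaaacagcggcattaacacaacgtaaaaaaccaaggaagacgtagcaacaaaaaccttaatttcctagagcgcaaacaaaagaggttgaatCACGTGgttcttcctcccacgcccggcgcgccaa
IRF3 and BCL2L12, chr19:49665858-49665932, plus strand: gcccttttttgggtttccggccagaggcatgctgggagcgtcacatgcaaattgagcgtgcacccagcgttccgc
TBK1, chr12:64451970-64452119, plus strand: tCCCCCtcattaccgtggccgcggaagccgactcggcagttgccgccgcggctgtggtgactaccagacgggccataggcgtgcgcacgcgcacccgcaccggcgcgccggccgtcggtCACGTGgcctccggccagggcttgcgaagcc
IFIH1, chr2:162318685-162318762, minus strand: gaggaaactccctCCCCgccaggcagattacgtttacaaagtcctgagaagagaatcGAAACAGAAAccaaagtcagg

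Among the 6 members with a listed start, the promoters with a start peak, those of TREX1 and ADAR, were not the most GC-rich. CGAS, STING1, IRF3 and IRF7 have no listed start, so their promoters were not measured. Over the 250 bases before the start, GC content was 58% for TREX1 and 47.2% for the outermost ADAR start (percentiles 38.2 and 17.1 of 22132 starts of protein-coding genes). It was 66.8% for TBK1 and 70.4% for MAVS (percentiles 65.2 and 75.5), neither of which had a start peak. With all listed starts in 5 bins of GC content, a peak within 1000 bp was found for 9.57% in the lowest bin, up to 49.2% GC, and for 50.8% in the bin from 65.6 to 72% GC. It was 29.5% in the bin that holds TREX1 (49.6 to 58.8% GC), and fell to 45.0% in the highest bin.

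CpG content differed widely between these promoters. TREX1 had 3 CpG in these 250 bases, a ratio of observed to expected of 0.143 (percentile 9.84), whereas TBK1 had 27 (ratio 0.968, percentile 85.9), MAVS 28 (ratio 0.959) and RIGI 22 (ratio 1.05, percentile 93.4). The outermost ADAR start had 12 CpG and a ratio of 0.921 (percentile 79.6), and IFIH1 had 12 with a ratio of 0.737. In 5 bins of this ratio, starts in the lowest had a peak in 11.3% of cases and those in the highest in 50.3%. GC skew, the excess of G over C on the strand read in the direction of transcription, was 0.00690 for TREX1, -0.254 for the outermost ADAR start, -0.235 for RIGI and -0.239 for MAVS. Across 5 bins of skew over these 250 bases, the share of starts with a peak ranged from 34.9% to 37.1%. The transcribed bases after the start were not included, so a relation of peaks to their skew was not tested.

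The motifs did not sort with the peaks in these few genes either. An E-box stood before the ADAR start, which had a peak, and the TBK1 start, which had none, and was found in 7.37% of all listed promoters. The interferon-response-like core was found 3 times before the IFIH1 start, counting both strands, and before no other listed start of the 10 genes, with 2.71% of promoters holding it. The match in the printed bases lies between the IFIH1 and GCA starts, and the others reach into the span of GCA. The run GGGG, on either strand, was found before each listed start of the 10 genes and in 91.9% of all promoters. In the bases printed for ADAR, TBK1 and IFIH1 its matches are runs of C, so the G lies on the other strand. The NRF1-like palindrome was found before none of these starts and in 1.28% of all promoters.

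**Figure D3:**
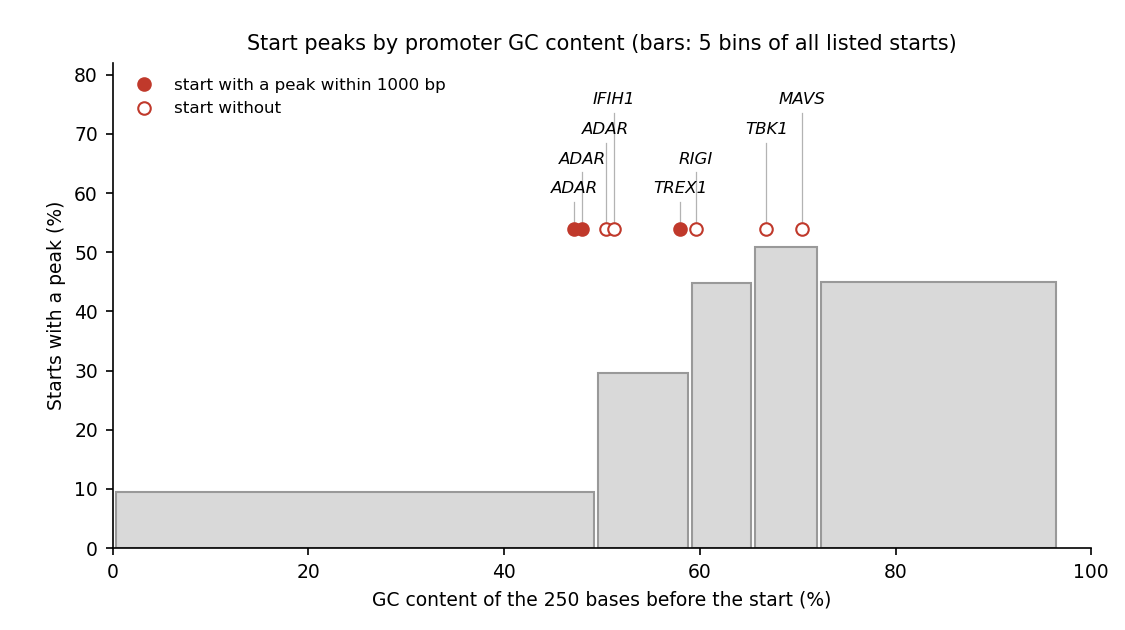
Bars give the percentage of listed starts of protein-coding genes with a peak within 1000 bp, for 5 bins of GC content over the 250 bases before the start. Circles mark the listed starts of 6 members at their GC content, filled where a peak lay within 1000 bp (their height carries no value): the filled circles are the outer starts of ADAR, from 47.2 to 48% GC, and TREX1 at 58%, while TBK1 at 66.8% and MAVS at 70.4% are open.

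In strength the 8 peaks were ordinary apart from the one shared by IRF3 and BCL2L12. Their median maximum coverage was 3 and their median total 996.5, beside 3 and 1012 for the 28364 peaks over protein-coding genes, and their median width was 711.5 bp beside 689 bp. Maxima were 2 at STING1, ADAR and the third MAVS peak, 3 at TREX1, the lower IRF3 peak and the first MAVS peak, and 4 at the second MAVS peak. Taking a maximum as a count of fragments, with exact Poisson intervals for counting error alone, a maximum of 2 spans 0.242 to 7.22, one of 3 spans 0.619 to 8.77, one of 4 spans 1.09 to 10.2 and one of 8 spans 3.45 to 15.8. A maximum is picked as the highest point of a peak that entered the list, and its scaling is not stated, so these intervals are only rough. They overlap, and at this depth the order of the peaks is a description of the list.

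**Figure D4:**
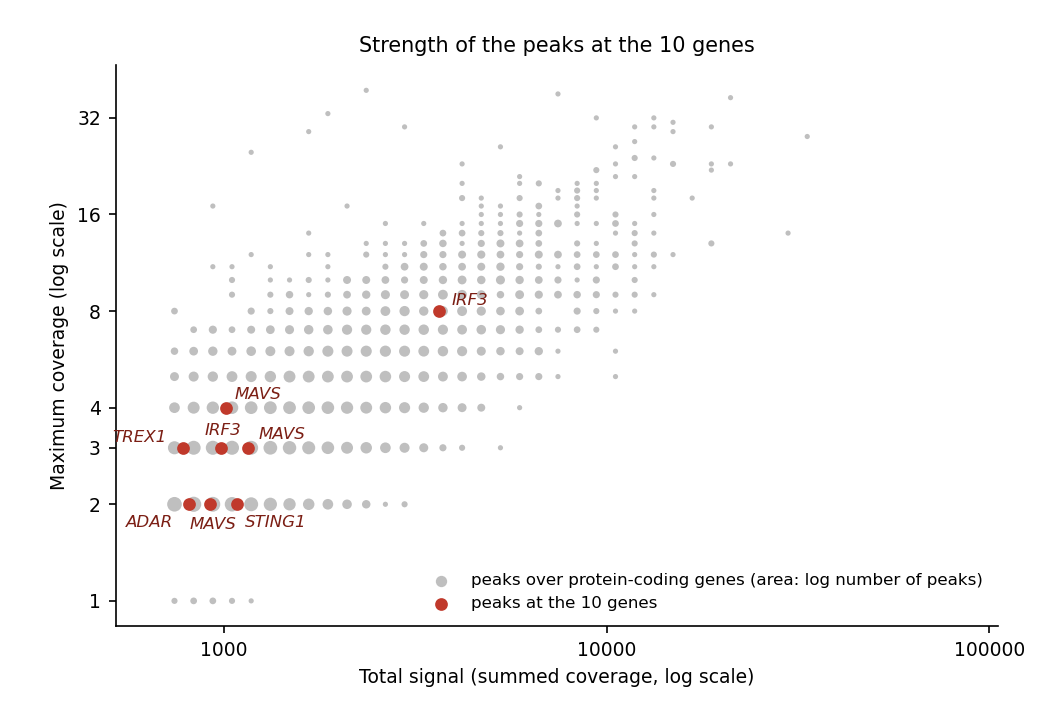
Each red point is a peak at 1 of the 10 genes, by total signal and maximum coverage on log axes. Grey points are peaks over protein-coding genes with a maximum of at most 40, binned, larger where more peaks fall: 7 of the 8 red points lie between maxima of 2 and 4, and the peak over IRF3 and BCL2L12 stands at 8.

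The count depended on how strong a peak had to be. Among peaks that reached a maximum of at least 3, 3 of 10 members had one (IRF3, MAVS and TREX1), beside 44.6% of protein-coding genes. With the 50% of peaks highest in total signal, 3 members again had one, but these were STING1, IRF3 and MAVS, beside 45.5% of protein-coding genes.

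Further genes of the pathway, 51 in 4 lists, had a peak in 36 cases (70.6%, 95% Wilson interval 57.0 to 81.3), beside 60.4% of protein-coding genes and 5 of 10 for the members. On the DNA sensing side 7 of 13 had one. The highest were G3BP1, a stress granule protein that assists cGAS, with a start peak of maximum 9, STIM1 (4) and the helicase DDX41 (4 peaks, highest 3). The inflammasome DNA sensor AIM2, ENPP1, which degrades the product of cGAS, and the ubiquitin ligase RNF5 had none. ENPP1 and RNF5 lie on chromosome 6, as CGAS does, where a smaller share of protein-coding genes had a peak.

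On the RNA sensing side 13 of 14 other genes had a peak, the exception being NLRX1. The highest maxima were 6 at the adaptor TRAF2 (5 peaks) and at RNF135 (4 peaks), a ubiquitin ligase that activates RIG-I, and 5 at the helicase DHX9. These genes are long, with a median span of 42820.5 bp. In the length bin from 35350 to 83641 bp, 68.2% of protein-coding genes had a peak. RIGI and IFIH1, in the same range of length, had none, and the third receptor of the family, DHX58, had 1 peak inside its span (maximum 3), chosen after its value was seen.

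Among kinases and transcription factors downstream, 11 of 13 others had a peak, with maxima of 6 at IKBKG, ATF2 and JUN. IKBKG has a near-identical pseudogene copy, so its peaks are uncertain. IRF1 and NFKB1 had none. The kinase most like TBK1, IKBKE, had 2 peaks with a highest maximum of 2, and was also named after its value was seen. Among nucleases and other brakes, 6 of 12 had a peak (25.4 to 74.6%), with a median span of 13787.5 bp. Both intervals hold the 60.4% of protein-coding genes, and the difference between these lists was not tested. The highest brakes were RNASEH2B, a subunit of the RNase H2 that removes RNA from hybrids (5), the nucleotide hydrolase SAMHD1 (4) and ADARB1, a relative of ADAR (3 peaks, highest 2). BANF1, which shields DNA from cGAS, DNASE1L3 and LSM11 had none. Some of the other brakes without a peak lie on chromosome 6.

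For comparison, 14 of 16 R-loop resolving factors had a peak (87.5%), beside 60.4% of protein-coding genes. Maxima were 9 at the topoisomerase TOP1 and 8 at the helicases DDX5 and AQR, with no peak at RNASEH2A and THOC1. This list shares 4 genes with the pathway lists (DHX9 and the RNase H2 subunits). Its genes are long, with a median span of 51082 bp, beside 30216.5 bp for checkpoint ligands and 28936 bp for the members. In the length bin from 35350 to 83641 bp, 68.2% of protein-coding genes had a peak. Of 16 checkpoint ligands 10 did (62.5%), with 30 at NECTIN2, 6 at TNFSF9 and 4 at both PVR and CD274, and none at CD80, CD86 or HHLA2. Within 1000 bp of a NECTIN2 start (a boundary if none is listed) the highest maximum was 5. Whether the peak of 30 is shared with a neighbouring gene was not examined. The interval for the 10 sensing genes, 23.7 to 76.3%, overlaps that of both lists (64.0 to 96.5% and 38.6 to 81.5%), and the differences between lists were not tested.

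**Figure D5:**
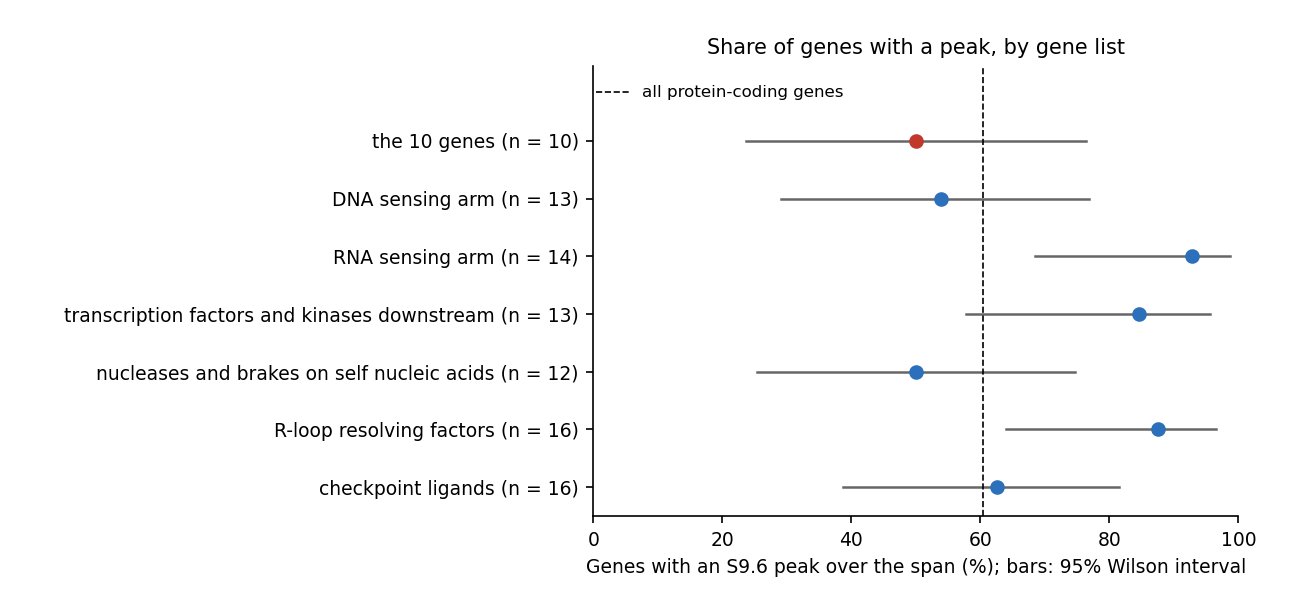
Points give the percentage of genes with an S9.6 peak over the span or its 1000 bp flanks, for the 10 genes (red) and for further genes of 4 pathway lists and 2 compared lists without the members (blue), with 95% Wilson intervals. The dashed line is the 60.4% of all protein-coding genes, which lies within the interval of the 10 genes.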

How the data were processed

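The authors deposited 1 peak list, for the S9.6 library, with no header. Its total signal and maximum coverage are whole-number signal values; maxima take each whole number from 1 to 53, and the total was at most width times maximum in 47810 of 47810 peaks, as in SEACR's column order. Whether they were scaled is not stated. Per the submitters' processing notes, the authors made these coverage signal values before deposit with tools that include SEACR 1.3 and Bowtie2 2.4.2, besides bedtools 2.30.0, deepTools 3.5.2, fastp 0.23.2 and SAMtools 1.9, on GRCh38. Which tool did what, the threshold, whether IgG served as control, and how duplicates and multimapping were treated is not given in the sources used here. Mapped sequences included patches and alternate haplotypes (1313 peaks), so reads from duplicated regions could map elsewhere.

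Gene spans, classes, starts and promoter bases came from RefSeq tables of GRCh38.p14. All 10 members and all other listed symbols matched; 6 members had a listed start. Overlaps of at least 1 base were counted in Python 3.11.15 with pandas 2.3.3, and the count was tested on simulated data. Percentiles are over peaks on chromosomes 1 to 22 and X, or over protein-coding genes. Named genes were all members, the 3 highest and first 3 peakless genes of each list, genes starting at a member's peak and, for members without one, the nearest gene with a peak. ATRIP, CD274, CDHR5, DHX58, GCA, IKBKE, IRF5, IRF9, PANK2, PRMT1, SCAF1 and SHISA5 were chosen after their values were seen. The members and lists were chosen with earlier results of these data known.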

Additional observations from a re-analysis of the deposited data

How the results depend on the processing

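Among peaks with a maximum of at least 3, members with a peak over the span went from 5 to 3, members with a start or boundary peak from 4 to 2, and peaks from 8 to 5. With the 50% of peaks highest in total signal these became 3, 2 and 4. Without peaks nearer to the start of another protein-coding gene 5 peaks remained at 5 members. Fewer peaks enter by construction in all these settings. The background of 60.4% was 58.0% among protein-coding genes within the range of member lengths and 61.9% without chromosome 6. The other settings (no flank, 5000 bp, summit or 50% of the peak inside the window, start windows of 500 and 2000 bp) kept the counts of members and peaks within 1.5 times. The median maximum coverage, 3, ranged from 2 to 3.5. No paired analysis was possible because there was 1 library per antibody. The lowest total signal listed was 745, and whether depth or the caller's threshold set it was not tested.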

Other observations

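Over all 22132 listed starts of protein-coding genes, 35.6% had a peak within 1000 bp. The share was 25.5% for starts whose upstream 250 bases hold the interferon-response-like core, found before IFIH1, and 35.9% for those without it. For the run GGGG on either strand it was 37.7% with and 11.8% without. It was 43.1% with the E-box CACGTG, found before ADAR and TBK1, and 35.0% without, and 53.9% with the NRF1-like palindrome against 35.4% without. Promoters with these motifs differ in base composition, whose part in these shares was not tested.

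Neighbours of IRF7 and TREX1 gave further values. PHRF1, a PHD and RING finger gene below IRF7, had 3 peaks with a highest maximum of 4, which lay at its start. SHISA5, whose span begins just above TREX1, had no peak.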
